A study of Homo sapiens with 18 samples.

Results

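The 10 genes described here encode proteins that carry glucose into the cell and break it down to lactate. They are the glucose transporters SLC2A1 and SLC2A3, the hexokinases HK1 and HK2, the phosphofructokinase PFKP, the regulators of phosphofructokinase PFKFB3 and PFKFB4, the enzymes PGK1 and ENO1 of the later steps, and the lactate dehydrogenase LDHA. They were taken by symbol, by a rule that uses no measured value, although the list was drawn up with earlier results of these data known, and each of them matched 1 of the 23368 gene rows. RNA was sequenced from SJSA-1 cells, a human osteosarcoma line with amplified MDM2 and CDK4 genes, in 18 libraries that fall into 6 groups of 3 replicates. The control group received DMSO, the solvent. The group named Nutlin received 20 µM Nutlin, an antagonist that frees p53 from MDM2, for 6 h. The groups named PD received 10 µM PD0332991 (Palbociclib), an inhibitor of the kinases CDK4 and CDK6, on schedules of 30 h (PD30) or 24 h (PD24). In the scheme of the study, PD24 cells had the inhibitor removed before the last 6 h, in which Nutlin was given. N+PD24 and N+PD30 combine Nutlin with each schedule. All 6 groups derive from 1 cell line, and the labels do not say whether replicates were separate cultures. The study describes the replicates of this RNA-seq as biological triplicates. P-values measure the spread between these samples of 1 line.

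Glucose enters most cells through facilitative transporters of the SLC2A (GLUT) family and is trapped by hexokinases, which phosphorylate it. Phosphofructokinase commits the sugar to glycolysis, and the PFKFB enzymes set its speed by making or removing fructose 2,6-bisphosphate, its strongest activator. PGK1 makes ATP, ENO1 makes phosphoenolpyruvate, and LDHA turns pyruvate into lactate while it restores NAD+. Tumour cells often run this pathway fast even when oxygen is present. The hypoxia-inducible factor HIF1 and MYC are known activators of many of these genes, and p53 is known as a restraint on glycolysis, among other ways through its target TIGAR.

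HK2 fell with Nutlin in all 3 settings, alone and on both schedules of PD0332991, to between 0.497-fold and 0.537-fold. LDHA fell wherever PD0332991 was given. The falls on the 30 h schedule held under other scaling, filters and tools and without any 1 library, and those on the 24 h schedule did not. SLC2A3 and PFKFB4 rose when PD0332991 was kept on for 30 h. HK2 rose when PD0332991 had been given for 24 h and, by the scheme of the study, then removed. Length of exposure and removal cannot be told apart in this design. With Nutlin present, the rises of PFKFB4 and HK2 were lost without some of the libraries. PFKFB3 rose on the 24 h schedule with and without Nutlin, and on the 30 h schedule with Nutlin. ENO1, PGK1, PFKP, SLC2A1 and HK1 differed by less than 1.5-fold in every comparison of 2 groups. The sum of the 10 genes is given in CPM, counts divided by the library total and brought to a common scale. It was lowest in PD30 (4804 ± 371) and highest in Nutlin (5535 ± 88.2), against 5086 ± 101 in DMSO (mean ± SD, n = 3). The PD30 libraries (5013, 5022 and 4376 CPM) overlapped with those of DMSO (5172, 5111 and 4975 CPM). ENO1 made the largest part of this sum, with 2468 ± 67.9 CPM in DMSO.

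Among the sequences before the start sites, 3 members carry the E-box CACGTG, a motif that MYC and related factors recognise, and that contains ACGTG, the core of the site known for HIF1. Of the genes behind these 3 stretches, HK2 and PFKFB3 both rose in PD24 against DMSO, where LDHA fell. HK2 and PFKFB3 were also both lower in PD30 than in PD24. With Nutlin against DMSO the log2 fold change was -0.90 for HK2, -0.28 for PFKFB3 and 0.15 for LDHA. Whether the motif had a part in this was not tested. The stretches are shown because they hold CACGTG. They come from RefSeq (build GRCh38.p14), from windows of 300 bases that reach from 250 bases before to 50 bases after a start. Each stretch runs from 10 bases before the first to 10 bases after the last ACGTG or GCGTG upstream of the start, is read 5′ to 3′ on the plus strand, and has these motifs on either strand in capitals.
HK2, chr2:74834966-74835114: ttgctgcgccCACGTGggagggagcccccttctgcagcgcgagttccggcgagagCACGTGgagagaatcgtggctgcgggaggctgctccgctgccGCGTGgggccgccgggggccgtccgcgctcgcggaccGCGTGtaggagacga
PFKFB3, chr10:6202814-6202839: ccctcctcccCACGTGgaagggggct
LDHA, chr11:18394368-18394504: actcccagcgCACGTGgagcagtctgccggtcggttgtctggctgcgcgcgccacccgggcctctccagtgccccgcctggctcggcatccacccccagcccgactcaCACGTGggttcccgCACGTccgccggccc

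The stretches of HK2 and LDHA hold 2 copies of CACGTG each and that of PFKFB3 holds 1. Of the 35116 promoter windows in the RefSeq table, 7.26% contain CACGTG, 21.4% contain ACGTG and 36.5% contain GCGTG on either strand, and 48.4% contain ACGTG or GCGTG. Of the 21 windows of the members, 14 contained ACGTG or GCGTG and 3 contained CACGTG. The 21 windows belong to 9 members, and SLC2A3 had no entry. HK2, PFKFB3 and LDHA each had a further window, at another start, without CACGTG. A match is a description of letters and does not show that a factor was bound.

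Per kilobase of exon, a scale for comparing genes that depends on the annotation of exons, ENO1 was the most abundant member in every group. It had 473 ± 13.0 CPM per kb in DMSO (SD, n = 3). LDHA followed with 150 ± 12.9 and PGK1 with 123 ± 6.07 CPM per kb. PFKP stood at 56.6 ± 8.17, SLC2A1 at 31.6 ± 3.46 and HK1 at 30.3 ± 0.532 CPM per kb. SLC2A1 and HK1 are neighbours in this order whose difference was smaller than their spread. The inducible forms were lower, with 11.9 ± 0.565 for PFKFB3, 8.37 ± 1.08 for HK2, 7.88 ± 0.815 for SLC2A3 and 1.29 ± 0.0700 CPM per kb for PFKFB4. HK2 and SLC2A3 could not be ordered either, as they differed by less than their spread. LDHA ranked above PGK1 in DMSO and, by less than their spread, in Nutlin, and below it in the 4 groups that received PD0332991, with 89.8 ± 19.4 against 151 ± 16.8 CPM per kb in PD30.

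**Figure D1:**
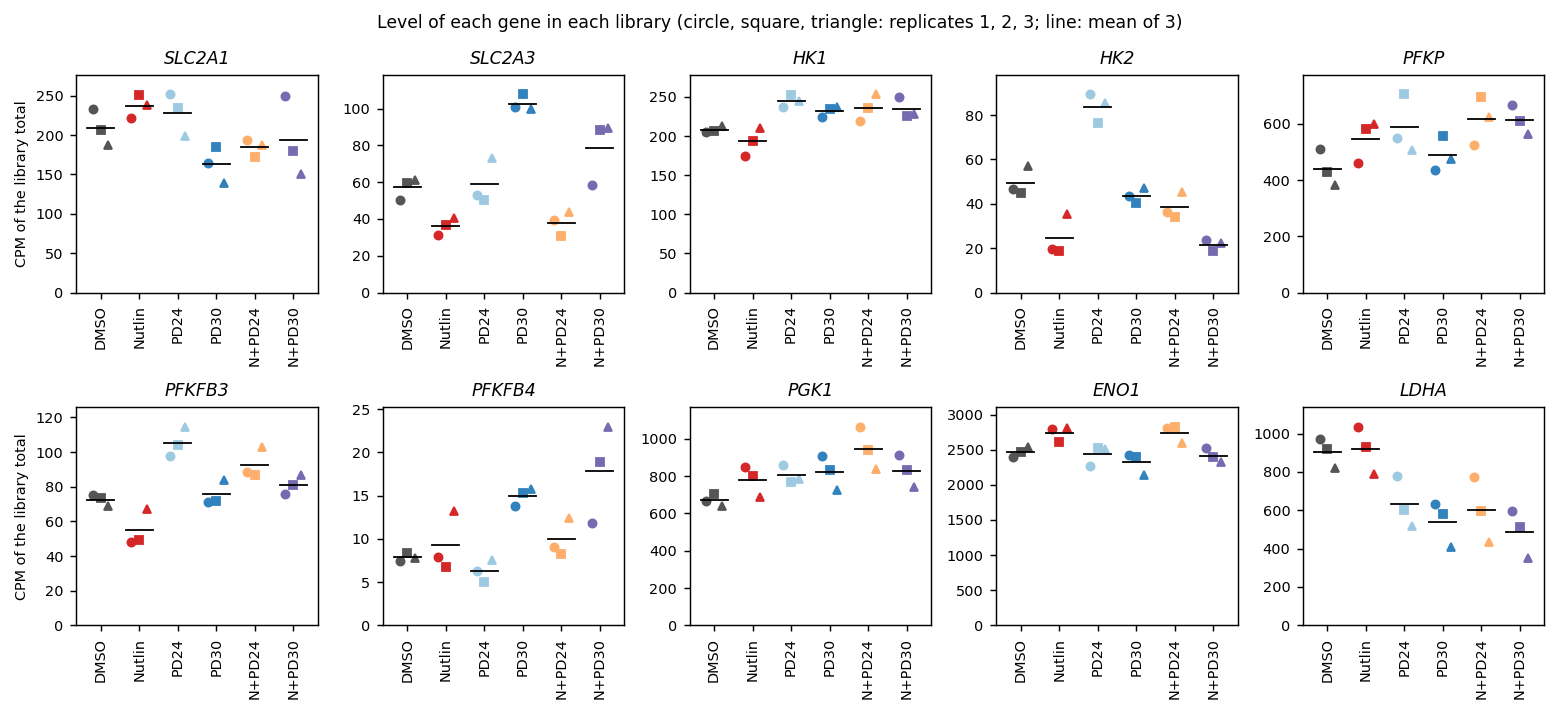
Each panel plots 1 gene, with the level in CPM of the library total on the vertical axis (linear, from 0) and the 6 groups on the horizontal axis. Circles, squares and triangles are replicates 1, 2 and 3, and the line is their mean. HK2 is highest in the 3 PD24 libraries (76.5 to 89.3 CPM) and LDHA is lower in all 12 libraries with PD0332991 than in the 6 without it.

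The libraries held 12704845 to 40231041 counts (median 29608936), the fewest in N+PD30 replicate 1. As a check of the treatments, the p53 target CDKN1A rose by 4.56 on the log2 scale with Nutlin, and the S-phase cyclin CCNA2 fell by 5.60 with PD30, both against DMSO. Markers of the osteoblast lineage were present in part, as COL1A1 ranged from 1122 to 3697 and RUNX2 from 18.2 to 34.5 CPM, whereas SP7, BGLAP and IBSP were at or near 0 in every library (at most 0.244 CPM). Of 4 epithelial markers, EPCAM and CDH1 did not exceed 1.65 CPM, whereas the keratins KRT8 and KRT18 ran from 9.47 to 36.9 and from 79.8 to 251 CPM, and the sum of the list ran from 108 to 264 CPM. Of 3 blood cell markers, PTPRC and CD3E did not exceed 0.492 CPM and CD68, a lysosomal protein of macrophages, ran from 13.6 to 36.4 CPM. The part of these markers in the results was not tested. In these bulk samples, fewer cells of a kind and less RNA per cell cannot be told apart.

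Each comparison was tested across all genes that passed a filter on low counts, and all 10 members passed in every one. Those with N+PD24, whose columns hold scaled counts, were tested with limma on log2(CPM + 1), and the others with edgeR on counts. A gene is called when its Benjamini-Hochberg adjusted p is below 0.05. With Nutlin against DMSO, 6 members were called, beside 54.6% of all genes tested, 4 of them higher (26.6% of all genes) and 2 lower (28.0%). With PD30 against DMSO it was 5 members, beside 48.3% of all genes, with 3 higher (22.9%) and 2 lower (25.4%). PD24 against DMSO called 6 members, beside 38.3%, with 5 higher (17.5%) and 1 lower (20.8%). Against Nutlin, N+PD30 had 4 members called, beside 49.0%, with 3 higher (24.3%) and 1 lower (24.7%). N+PD24 had 5 called against Nutlin, beside 36.7%, with 3 higher (16.4%) and 2 lower (20.3%). Adding Nutlin to PD30 called 0 members higher (8.84% of all genes) and 1 lower (5.64%), beside 14.5% in either direction. Adding it to PD24 called 1 higher (12.3%) and 2 lower (23.7%), beside 36.0%. PD30 differed from PD24 in 5 members, beside 25.2%, with 2 higher (12.2%) and 3 lower (12.9%). The replicate number was also used as a block. In the comparisons that follow, the numbers were taken to pair the samples, from correlations in these same data. The labels state no pairing. With the block, the members called were 2 in N+PD30 against PD30 (4375 genes in place of 2183) and 7 in PD30 against PD24 (6107 in place of 3816). They were 7 in N+PD24 against Nutlin (7852 in place of 5073) and 5 in N+PD24 against PD24. Of all genes called with Nutlin against DMSO, 48.7% were higher, and 36.7% when libraries were scaled by total counts in place of TMM, a scaling that takes most genes as unchanged. With so few members these counts say little about the list as a whole, and what follows concerns the single genes. Comparisons with DMSO share the DMSO libraries and comparisons with Nutlin share the Nutlin libraries, so their values are not independent. Of the 36 calls among the 100 tests of a member in a comparison, 16 held under every other scaling, filter, tool and replicate block that was tried and without each library in turn.

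SLC2A1 (GLUT1), the widespread transporter for basal glucose uptake, lies at chr1:43391024-43424564 (GRCh37). Its level was 233, 206 and 187 CPM in the DMSO libraries, 221, 251 and 239 in Nutlin, and 165, 185 and 139 in PD30. In the 3 PD24 libraries it was 252, 234 and 199 CPM, in N+PD24 it was 194, 172 and 187, and in N+PD30 it was 250, 179 and 151 CPM. The PD30 libraries thus lay below all DMSO and all PD24 libraries, while Nutlin and DMSO overlapped. SLC2A1 rose with Nutlin by a log2 fold change of 0.31 (SE 0.103, adjusted p = 0.0271). It was lower in PD30 than in DMSO, by 0.771-fold (log2 fold change -0.37, SE 0.123, adjusted p = 0.0308), and lower than in PD24, by 0.695-fold (log2 -0.52, SE 0.141, adjusted p = 0.0246). It was also lower in N+PD24 than in Nutlin, by 0.795-fold (log2 -0.33, SE 0.112, adjusted p = 0.0418). Each of these 4 calls was lost without some of the libraries. The call with Nutlin was lost without replicate 2 or 3 of DMSO or replicate 2 of Nutlin, written DMSO 2, DMSO 3 and Nutlin 2 below (log2 0.23 to 0.30, adjusted p 0.0959 to 0.113) and under scaling by total counts (log2 0.18, adjusted p = 0.14). The call in PD30 against DMSO was lost without DMSO 1, DMSO 2, PD30 1 or PD30 3 (log2 -0.38 to -0.26, adjusted p 0.0735 to 0.104), and that against PD24 without PD24 1, PD24 2, PD30 1 or PD30 3 (log2 -0.52 to -0.41, adjusted p 0.0561 to 0.0820). The call in N+PD24 was lost without any 1 of the 3 Nutlin libraries, N+PD24 2 or N+PD24 3 (log2 -0.35 to -0.24, adjusted p 0.0632 to 0.188), and was not made by edgeR on recovered reads (adjusted p = 0.0665), with DESeq2-type size factors (adjusted p = 0.0633) or without the filter (adjusted p = 0.0542). N+PD30 1, the shallowest library, set the spread of that group. Without it, the fall of SLC2A1 from Nutlin to N+PD30 was called (log2 -0.57, adjusted p = 0.00542), and with it the log2 fold change was -0.33 (SE 0.186, adjusted p = 0.168).

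SLC2A3 (GLUT3), a transporter with high affinity for glucose, lies at chr12:8071826-8171603 (GRCh37). Its level was 50.4, 59.6 and 61.5 CPM in DMSO, 31.4, 36.7 and 40.3 in Nutlin, and 101, 108 and 99.7 in PD30. It was 52.9, 50.4 and 73.0 CPM in PD24, 39.3, 30.5 and 43.7 in N+PD24, and 58.5, 88.4 and 89.3 in N+PD30. Every Nutlin library was below every DMSO library, and every PD30 library was above all libraries of the other groups. SLC2A3 fell with Nutlin to 0.689-fold (log2 -0.54, SE 0.118, adjusted p = 0.00353). It rose 1.78-fold in PD30 against DMSO (log2 0.83, SE 0.0950, adjusted p = 9.2e-05), 1.71-fold in PD30 against PD24 (log2 0.77, SE 0.138, adjusted p = 0.00437), and 2.12-fold in N+PD30 against Nutlin (log2 1.08, SE 0.163, adjusted p = 0.000351). These 4 calls held in every alternative. With PD24 against DMSO the log2 fold change was 0.06 (SE 0.146, adjusted p = 0.772), so the rise was measured on the 30 h schedule, and the difference between the schedules was itself called. On the PD24 schedule Nutlin lowered SLC2A3 to 0.698-fold (log2 -0.52, SE 0.177, adjusted p = 0.0416), a call lost without PD24 1, PD24 3 or N+PD24 2 (log2 -0.59 to -0.35, adjusted p 0.0542 to 0.154) and without the filter on low values (adjusted p = 0.061). On the PD30 schedule the value was -0.29 (SE 0.146, adjusted p = 0.197). SLC2A3 has a close copy, SLC2A14, so that counts of reads shared by both are uncertain. SLC2A14 did not exceed 0.394 CPM in any library. This low count cannot show where shared reads went, as the study's counting skipped reads of low alignment quality.

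The share of SLC2A1 in the sum of both transporters, per kilobase of exon, followed from these opposite movements. It was 79.9% ± 3.33 in DMSO, 87.8% ± 1.00 in Nutlin and 63.3% ± 2.58 in PD30 (SD, n = 3). In PD24 it was 80.8% ± 5.11, in N+PD24 84.3% ± 1.84 and in N+PD30 72.1% ± 9.13. The PD30 libraries (60.4% to 65.3%) did not overlap with those of DMSO (77.0% to 83.5%) or Nutlin (86.7% to 88.5%).

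HK1, the constitutive hexokinase, lies at chr10:71029740-71161640 (GRCh37). Its group means ran from 193 ± 18.2 CPM in Nutlin to 245 ± 7.81 CPM in PD24, with 208 ± 3.66 in DMSO (SD, n = 3). HK1 rose 1.20-fold in PD24 against DMSO (log2 0.26, SE 0.0831, adjusted p = 0.0355), where the 3 libraries of each group did not overlap. It rose 1.25-fold in N+PD24 against Nutlin (log2 0.32, SE 0.104, adjusted p = 0.0356), again without overlap. Both calls were near the threshold. The former was lost without any 1 DMSO library or PD24 2 (log2 0.21 to 0.27, adjusted p 0.0848 to 0.129), by total counts (adjusted p = 0.0501) and without the filter (adjusted p = 0.0653). The latter was lost without any 1 Nutlin library, N+PD24 2 or N+PD24 3 (log2 0.28 to 0.36, adjusted p 0.0510 to 0.0987) and by total counts (adjusted p = 0.052). With Nutlin against DMSO, the sign of its difference depended on the scaling, with a log2 fold change of 0.02 (adjusted p = 0.884) by TMM and -0.11 (adjusted p = 0.327) by total counts.

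HK2, the inducible hexokinase that many tumours gain, lies at chr2:75061254-75120486 (GRCh37) and was called in 6 of the 8 comparisons of 2 groups, more than any other member. Its level was 46.8, 45.0 and 56.8 CPM in DMSO and 19.7, 18.7 and 35.2 in Nutlin. It was 89.3, 76.5 and 85.3 CPM in PD24 and 36.4, 34.0 and 45.3 in N+PD24, against 43.3, 40.5 and 47.1 in PD30 and 23.5, 18.7 and 22.5 in N+PD30. In each of these 3 pairs, every library with Nutlin lay below every library without it. HK2 fell with Nutlin to 0.537-fold of DMSO (log2 -0.90, SE 0.207, adjusted p = 0.00457), to 0.497-fold of PD24 (log2 -1.01, SE 0.134, adjusted p = 0.000251) and to 0.525-fold of PD30 (log2 -0.93, SE 0.126, adjusted p = 0.00381). The Nutlin response with PD0332991 differed from that without it by a log2 value of -0.05 (SE 0.260, adjusted p = 0.963) for PD24 and 0.02 (SE 0.270, adjusted p = 0.978) for PD30, so that a difference was not detected, with standard errors that leave room for one.

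The schedule of PD0332991 mattered for HK2. PD24 raised it 1.72-fold over DMSO (log2 0.78, SE 0.114, adjusted p = 0.000832), whereas the log2 fold change of PD30 against DMSO was -0.20 (SE 0.107, adjusted p = 0.157). PD30 was lower than PD24 by 0.508-fold (log2 -0.98, SE 0.103, adjusted p = 0.000478), without overlap. These 2 calls and the 3 falls with Nutlin held in every alternative. With Nutlin present, N+PD24 was above Nutlin alone by 1.63-fold (log2 0.71, SE 0.206, adjusted p = 0.0228), although the libraries overlapped. This call was lost without Nutlin 1, Nutlin 2 or N+PD24 3 (log2 0.57 to 0.62, adjusted p 0.0600 to 0.0916). Per kilobase of exon, HK1 made up 78.4% ± 1.88 of both hexokinases in DMSO, 71.6% ± 2.23 in PD24, 87.4% ± 3.23 in Nutlin and 90.4% ± 0.761 in N+PD30 (SD, n = 3).

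**Figure D2:**
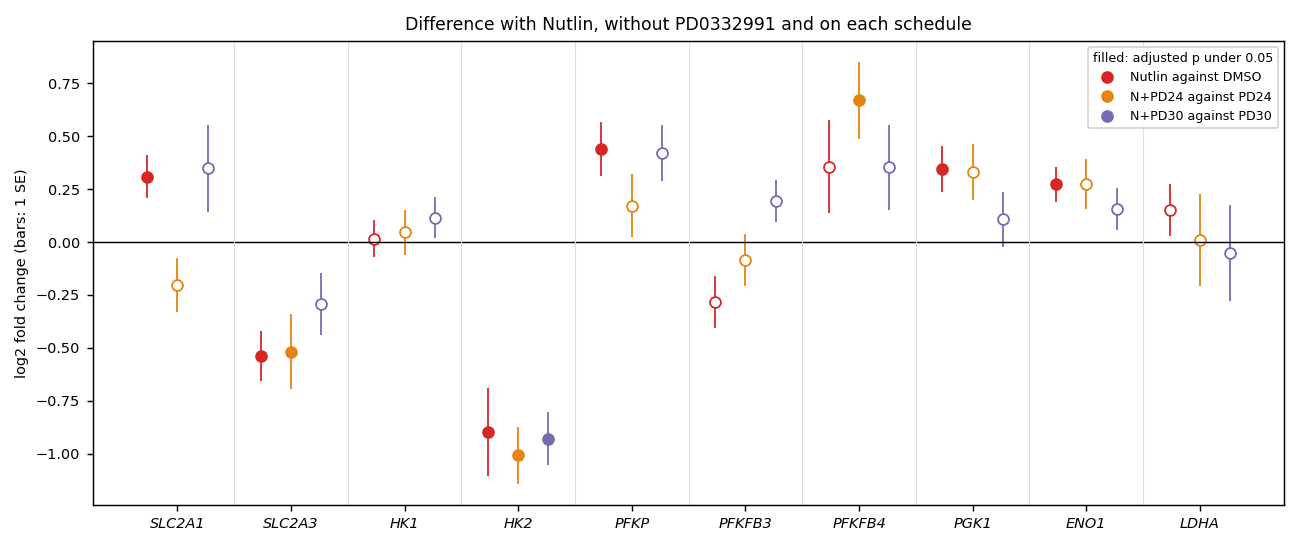
The vertical axis gives the log2 fold change with Nutlin for each of the 10 genes, in cells without PD0332991 (red), on the PD24 schedule (orange) and on the PD30 schedule (purple). Bars are 1 SE and filled points have an adjusted p below 0.05. HK2 lies between -1.01 and -0.90 in all 3 settings, SLC2A3 lies below 0 in all 3, and PFKFB3 runs from -0.28 without PD0332991 to 0.19 on the PD30 schedule.

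PFKP, the platelet form of phosphofructokinase, lies at chr10:3108525-3179910 (GRCh37) and ranged from 384 to 705 CPM over the 18 libraries. It rose with Nutlin against DMSO by a log2 fold change of 0.44 (SE 0.128, adjusted p = 0.0151) and with PD24 by 0.44 (SE 0.156, adjusted p = 0.0497), and libraries overlapped in both cases. The first call was lost without DMSO 2, DMSO 3, Nutlin 2 or Nutlin 3 (log2 0.34 to 0.41, adjusted p 0.0511 to 0.0679) and by total counts (log2 0.31, adjusted p = 0.0621). The second was lost without DMSO 2, DMSO 3, PD24 1 or PD24 2 (log2 0.27 to 0.49, adjusted p 0.0855 to 0.171) and with the size factors of DESeq2. On the PD30 schedule the log2 fold change with Nutlin was 0.42 (SE 0.133, adjusted p = 0.0659), with no overlap of libraries. There the replicate numbers were taken to pair the samples, and with the number as a block PFKP was called (log2 0.43, adjusted p = 0.0396). Blocked fits also called PFKP higher in N+PD24 than in Nutlin (log2 0.20, adjusted p = 0.048) and lower in PD30 than in PD24 (log2 -0.29, adjusted p = 0.0165).

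PFKFB3, a bifunctional enzyme whose kinase side prevails and which speeds up phosphofructokinase, lies at chr10:6186897-6296607 (GRCh37). Its level was 75.5, 73.3 and 68.7 CPM in DMSO, 48.0, 49.2 and 67.1 in Nutlin, and 97.5, 104 and 114 in PD24. It was 71.2, 71.6 and 84.0 CPM in PD30, 88.7, 86.5 and 103 in N+PD24, and 76.0, 80.7 and 86.6 in N+PD30. The PD24 libraries lay above all DMSO and PD30 libraries, and both combinations lay above all Nutlin libraries. PFKFB3 rose 1.48-fold in PD24 against DMSO (log2 0.56, SE 0.0961, adjusted p = 0.00196), 1.73-fold in N+PD24 against Nutlin (log2 0.79, SE 0.132, adjusted p = 0.0014) and 1.44-fold in N+PD30 against Nutlin (log2 0.53, SE 0.137, adjusted p = 0.00841). These 3 calls held in every alternative. PD30 was lower than PD24 by 0.699-fold (log2 -0.52, SE 0.108, adjusted p = 0.00869), which was lost without PD30 1 (log2 -0.47, adjusted p = 0.0557).

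With Nutlin alone, PFKFB3 had a log2 fold change of -0.28 against DMSO (SE 0.122, adjusted p = 0.072), and all 3 libraries were below those of DMSO. Without Nutlin 3, the highest of the group, it was called lower (log2 -0.43, adjusted p = 0.00671), and scaling by total counts also called it (log2 -0.41, adjusted p = 0.0261), as did the fit without the filter (log2 -0.32, adjusted p = 0.045). On the PD30 schedule the log2 fold change with Nutlin was 0.19 (SE 0.101, adjusted p = 0.213). The difference between these responses was 0.53 on the log2 scale (SE 0.168, adjusted p = 0.0414), the sole member called in this test, beside 19.8% of all genes (12.8% higher, 7.03% lower). It was lost without any 1 of 8 of the 12 libraries, all but DMSO 3, Nutlin 3, PD30 3 and N+PD30 1 (log2 0.44 to 0.52, adjusted p 0.0660 to 0.106), and by total counts (adjusted p = 0.0649). For PD24 the same difference was 0.25 (SE 0.164, adjusted p = 0.646).

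PFKFB4, a sister enzyme of PFKFB3, lies at chr3:48555117-48599448 (GRCh37) and was the least abundant member. Its level was 7.48, 8.32 and 7.76 CPM in DMSO, 7.86, 6.73 and 13.3 in Nutlin, and 13.7, 15.3 and 15.7 in PD30. It was 6.25, 5.06 and 7.51 CPM in PD24, 9.10, 8.23 and 12.5 in N+PD24, and 11.8, 18.9 and 22.9 in N+PD30. The PD30 libraries lay above all DMSO and PD24 libraries, whereas 1 N+PD30 library fell within the range of Nutlin. PFKFB4 rose 1.88-fold in PD30 against DMSO (log2 0.91, SE 0.119, adjusted p = 0.000213) and was 2.32-fold higher in PD30 than in PD24 (log2 1.21, SE 0.161, adjusted p = 0.00115), and both calls held in every alternative. It rose 1.89-fold in N+PD30 against Nutlin (log2 0.92, SE 0.265, adjusted p = 0.0149), a call lost without Nutlin 1 or Nutlin 2 (log2 0.74 to 0.82, adjusted p 0.0527 to 0.0624). It rose 1.59-fold with Nutlin on the PD24 schedule (log2 0.67, SE 0.182, adjusted p = 0.0154), a call lost without PD24 2 or N+PD24 3 (log2 0.51 to 0.55, adjusted p 0.0561 to 0.0622). The gene overlaps UCN2 on the same strand, so that counts in the overlap are uncertain.

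The 2 PFKFB enzymes thus moved apart with the schedule. Per kilobase of exon, PFKFB3 made up 90.2% ± 0.663 of both in DMSO, 94.4% ± 0.845 in PD24 and 83.5% ± 0.975 in PD30 (SD, n = 3). The ranges of the 3 groups did not overlap, with 89.8% to 91.0% in DMSO, 93.8% to 95.4% in PD24 and 82.4% to 84.2% in PD30. With Nutlin the share was 85.8% ± 2.24, and it was 90.4% ± 1.09 in N+PD24 and 82.2% ± 3.87 in N+PD30.

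PGK1, which makes the first ATP of glycolysis, lies at chrX:77166236-77384792 (GRCh37). It ranged from 638 to 704 CPM in DMSO, from 687 to 847 in Nutlin, from 769 to 860 in PD24 and from 725 to 906 in PD30. Single treatments raised it by similar amounts, with log2 fold changes against DMSO of 0.35 for Nutlin (SE 0.108, adjusted p = 0.0206), 0.28 for PD24 (SE 0.0874, adjusted p = 0.03) and 0.28 for PD30 (SE 0.0952, adjusted p = 0.0356). Only Nutlin overlapped with DMSO, in 1 library. Each call was lost without some libraries. For Nutlin these were DMSO 1, DMSO 3, Nutlin 1 and Nutlin 2 (log2 0.27 to 0.34, adjusted p 0.0538 to 0.0788), and the call was also lost by total counts (log2 0.22, adjusted p = 0.0765). For PD24 they were any 1 DMSO library, PD24 1 and PD24 2 (log2 0.23 to 0.33, adjusted p 0.0535 to 0.121), and for PD30 any 1 DMSO library, PD30 1 and PD30 2 (log2 0.21 to 0.32, adjusted p 0.0545 to 0.144). The highest level was that of N+PD24, with 1063, 941 and 841 CPM, and fits with the replicate block called it higher than Nutlin (log2 0.31, adjusted p = 0.00304) and than PD24 (log2 0.33, adjusted p = 0.0103). Limma without the block gave adjusted p = 0.122 and 0.0729, and edgeR on recovered reads without the block called the difference from PD24 (log2 0.38, adjusted p = 0.0407). PGK1 has processed copies elsewhere in the genome and its annotated span overlaps ATP7A on the same strand.

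ENO1, which makes phosphoenolpyruvate, lies at chr1:8921059-8939249 (GRCh37) and had the highest count of the members in every library, from 2143 to 2821 CPM. It rose with Nutlin against DMSO by a log2 fold change of 0.27 (SE 0.0826, adjusted p = 0.0174), with 2603 to 2815 CPM against 2403 to 2538. The call was lost without DMSO 1 or DMSO 2 (log2 0.25 to 0.27, adjusted p 0.0646 to 0.0770) and by total counts (log2 0.15, adjusted p = 0.116). On the PD24 schedule Nutlin gave a log2 fold change of 0.27 (SE 0.118, adjusted p = 0.0969), also without overlap, and it was called by the blocked fit (adjusted p = 0.0421) and by edgeR on recovered reads without a block (log2 0.32, adjusted p = 0.0499). The 4 comparisons of PD0332991 with its control gave log2 fold changes of ENO1 between -0.22 and 0.03, with no call.

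LDHA, which makes lactate, lies at chr11:18416107-18429972 (GRCh37). Its level was 974, 918 and 820 CPM in DMSO and 1033, 932 and 787 in Nutlin. It was 778, 601 and 520 CPM in PD24, 635, 579 and 410 in PD30, 772, 595 and 437 in N+PD24, and 595, 513 and 350 in N+PD30. All 12 libraries with PD0332991 lay below all 6 without it. LDHA fell in PD30 to 0.592-fold of DMSO (log2 -0.76, SE 0.150, adjusted p = 0.00264) and in N+PD30 to 0.518-fold of Nutlin (log2 -0.95, SE 0.205, adjusted p = 0.00305), and both calls held in every alternative. In PD24 it fell to 0.712-fold of DMSO (log2 -0.49, SE 0.148, adjusted p = 0.0284), a call lost without DMSO 1, DMSO 2, PD24 2 or PD24 3 (log2 -0.48 to -0.36, adjusted p 0.0609 to 0.0828). In N+PD24 it fell to 0.656-fold of Nutlin (log2 -0.61, SE 0.213, adjusted p = 0.0481), a call lost without Nutlin 1, Nutlin 2, N+PD24 2 or N+PD24 3 (log2 -0.58 to -0.38, adjusted p 0.129 to 0.143) and with edgeR on recovered reads (adjusted p = 0.0779), with DESeq2-type size factors (adjusted p = 0.0637) or without the filter (adjusted p = 0.0919). The schedules differed by a log2 value of -0.26 (PD30 against PD24, SE 0.188, adjusted p = 0.335), and with the replicate block by -0.27 (adjusted p = 0.0217). With Nutlin, the log2 fold change of LDHA was 0.15 against DMSO (SE 0.123, adjusted p = 0.32), 0.01 against PD24 (SE 0.218) and -0.05 against PD30 (SE 0.228).

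**Figure D3:**
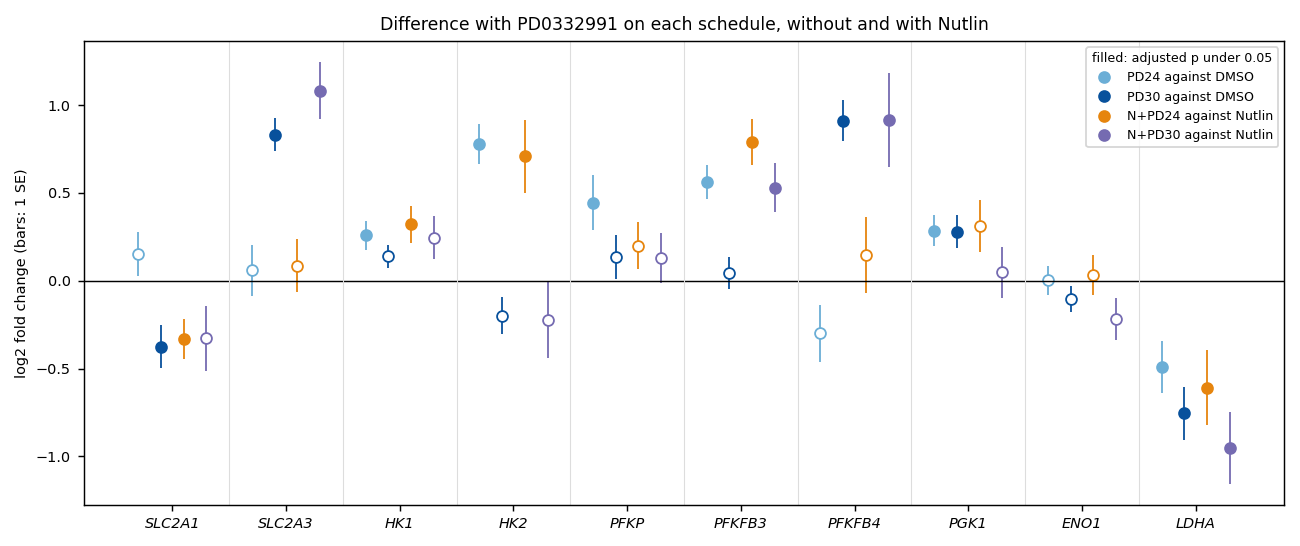
The vertical axis gives the log2 fold change with PD0332991 for each of the 10 genes, for PD24 and PD30 against DMSO (light and dark blue) and for N+PD24 and N+PD30 against Nutlin (orange and purple). Bars are 1 SE and filled points have an adjusted p below 0.05. SLC2A3 is at 0.83 and 1.08 and PFKFB4 at 0.91 and 0.92 in the PD30 comparisons, HK2 is at 0.78 and 0.71 in the PD24 comparisons, and LDHA is below 0 in all 4.

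The Nutlin response was also compared with and without PD24. No member was called in this test by limma, beside 1.34% of all genes (0.874% higher, 0.470% lower), and 0 were called by edgeR on recovered reads. At an unadjusted p below 0.05 there was 1 member by either tool, SLC2A1, with a difference of -0.47 on the log2 scale (SE 0.161, adjusted p = 0.239). This test is less sensitive than a comparison of 2 groups, since the errors of 4 groups add up.

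Of the genes around the members, 93 from 7 lists were followed, which cover the rest of glycolysis, other transporters, the entry of pyruvate into mitochondria, the pentose phosphate pathway, gluconeogenesis, regulators of glucose use, and hypoxia targets outside glycolysis. Among the 26 genes of the rest of glycolysis and lactate transport, 7 of 21 tested were higher and 2 lower with Nutlin, beside 26.6% and 28.0% of all genes (median log2 fold change 0.30, against 0.03 over all genes). With PD24, 4 of 19 were higher and 1 lower, beside 17.5% and 20.8% (median 0.27, against 0.02), and with PD30, 6 of 19 were higher and 4 lower, beside 22.9% and 25.4% (median 0.08, against 0.00). ALDOC, a form of aldolase, stood at 2.83 ± 0.288 CPM in DMSO and rose to 21.5 ± 1.41 in PD30 (log2 2.91, SE 0.134, adjusted p = 1.72e-07) and to 11.5 ± 5.91 in PD24 (log2 2.05, SE 0.376, adjusted p = 0.00284). HKDC1, a further hexokinase, rose from 2.60 ± 0.942 CPM in DMSO to 16.1 ± 5.12 in PD24 (log2 2.65, SE 0.325, adjusted p = 0.000307), and from 3.39 ± 1.42 in Nutlin to 21.6 ± 5.47 in N+PD24 (log2 2.42, SE 0.256, adjusted p = 7.96e-05). In PD30 the level of HKDC1 was 8.20 ± 1.41 CPM.

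Among the other glucose transporters, 6 of 7 tested genes were higher and 1 lower with PD30, beside 22.9% and 25.4% of all genes, and 3 of 9 were higher with Nutlin, beside 26.6%. SLC2A5, a fructose transporter, was at 0.0815 ± 0.114 CPM in DMSO and 5.58 ± 0.382 in Nutlin, but at 0.410 ± 0.0549 in N+PD30 and 1.58 ± 0.526 in N+PD24. Its Nutlin response was smaller with PD30 (log2 difference -4.90, SE 0.825, adjusted p = 0.00136), a value that rests on counts near 0 in DMSO. SLC2A12 rose with Nutlin on the PD24 schedule from 5.99 ± 1.11 to 17.1 ± 2.32 CPM (log2 1.47, SE 0.165, adjusted p = 9.12e-05). PCK1, an enzyme of gluconeogenesis, was at 0.0101 ± 0.0175 CPM in DMSO, 0.845 ± 0.255 in Nutlin and 0.0262 ± 0.0454 in N+PD30, values that rest on counts near 0. SCO2, from the regulators of glucose use and as low, went the other way, with 0.0690 ± 0.0667 CPM in Nutlin and 0.740 ± 0.269 in N+PD30. Its Nutlin response was larger with PD30 (log2 difference 4.31, SE 1.39, adjusted p = 0.0434), a call lost without some libraries (adjusted p up to 0.341).

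At the entry of pyruvate into mitochondria, 5 of 13 genes were lower and 1 higher with Nutlin, beside 28.0% and 26.6% of all genes. PDK4, a kinase that closes the pyruvate dehydrogenase complex, fell from 3.52 ± 0.184 CPM in DMSO to 0.778 ± 0.144 in PD24 (log2 -2.13, SE 0.205, adjusted p = 6.52e-05) and 1.03 ± 0.286 in PD30 (log2 -1.79, SE 0.223, adjusted p = 0.000161). Of the pentose phosphate pathway, 2 of 7 genes were higher and 2 lower with Nutlin, beside the same shares. Of gluconeogenesis, 2 of 5 were higher and 0 lower with Nutlin, again beside 26.6% and 28.0%. Among regulators of glucose use, 3 of 11 were higher and 5 lower with Nutlin, beside 26.6% and 28.0%. TIGAR, a p53 target that lowers fructose 2,6-bisphosphate, rose from 51.3 ± 3.82 in PD24 to 198 ± 28.6 CPM in N+PD24 (log2 2.02, SE 0.139, adjusted p = 5.39e-06) and from 51.3 ± 7.20 in PD30 to 242 ± 66.4 CPM in N+PD30 (log2 2.32, SE 0.186, adjusted p = 0.000236). Of the hypoxia targets outside glycolysis, 8 of 15 were higher and 2 lower with PD30, beside 22.9% and 25.4% of all genes, and 5 of 15 were higher and 2 lower with PD24, beside 17.5% and 20.8%. In PD30 against PD24, 5 of these 15 were higher and 3 lower, beside 12.2% and 12.9% of all genes (median log2 0.22, against -0.02 over all genes). Among those lower, ANGPTL4 and ADM had 6.73 ± 1.23 against 46.2 ± 16.3 CPM (log2 -2.82, SE 0.281, adjusted p = 0.000412) and 4.65 ± 1.70 against 18.8 ± 3.80 CPM (log2 -2.05, SE 0.287, adjusted p = 0.00139).

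**Figure D4:**
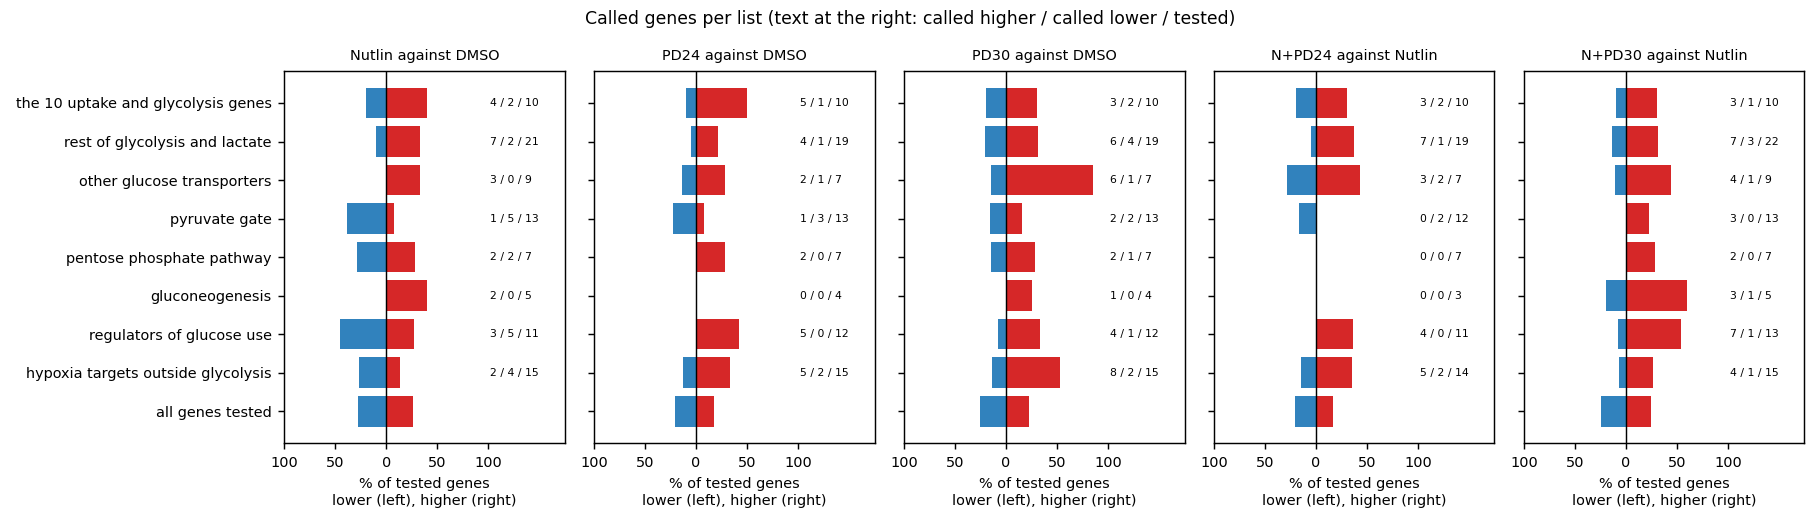
Bars give, for each list and for all genes tested, the percentage of tested genes called higher (right, red) and lower (left, blue) in 5 comparisons, and the numbers at the right give the genes called higher, called lower and tested. For the 10 uptake and glycolysis genes these are 4, 2 and 10 with Nutlin against DMSO, and 5, 1 and 10 with PD24 against DMSO.

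Over the 18 libraries, the members did not share 1 pattern. On log2(CPM + 1), Pearson's r between members ran from -0.79 for SLC2A3 with ENO1 to 0.85 for HK1 with PFKFB3, as a description over libraries that share groups and depth. LDHA was closest to TFPI2 (r = 0.968), SLC2A3 to RAB7L1 (r = 0.964), HK2 to RASA3 (r = 0.958) and PFKFB3 to LRRC8E (r = 0.944), each chosen as the highest r among 9493 genes with a mean of 10 CPM or more. ENO1 was closest to the pyruvate kinase gene PKM, listed as PKM2 (r = 0.912), which acts right after it in glycolysis.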

How the data were processed

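RNA-seq was performed on SJSA-1 cells in 18 libraries, 6 groups of 3. Per the sources used here, the authors prepared libraries with a TruSeq kit, aligned reads to hg19 with TopHat and Bowtie2, and counted them per gene with HTSeq 0.6.0 on the reverse strand. Whether the kit kept strand was not stated. For 15 libraries the deposited values were raw counts per gene. For the 3 N+PD24 libraries they were a signal, deposited as counts divided by 1 size factor per library, from which whole reads were recovered (100% of values whole within 0.001 reads) and scaled to their own totals. On these reads edgeR called 5483 genes in N+PD24 against Nutlin and 5713 in N+PD24 against PD24, where limma called 5073 and 4853. Of the other deposited tables, 1 holds the authors' DESeq2 comparison of Nutlin with DMSO and the others hold normalized means and values, and none was used.

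The 23368 gene rows, 28 of them with symbols turned into dates, were tested in R 4.3.3. For counts, edgeR 4.0.16 (quasi-likelihood, TMM scaling, filterByExpr) was used. Comparisons with N+PD24 used limma 3.58.1 with a trend on log2(TMM-scaled CPM + 1) at a mean CPM of 1 or more, so that these fold changes understate those of low genes. P-values were adjusted by Benjamini-Hochberg over all genes tested in each comparison. An interaction is the Nutlin response with PD0332991 minus that without it. The procedure was run on simulated counts with the same spread for all genes, few changed genes and no replicate effect. These settings differ from the data, so that run does not show how the tests perform here. Levels are CPM of the library total, per kb by the union of exons in GENCODE lifted to GRCh37. The study names UCSC hg19 as its reference, so the exons counted may differ from this union. The order of genes per kb and the shares of pairs depend on these lengths. Alternatives were total-count and DESeq2-type scaling, no filter, DESeq2 1.42.0, a pseudocount of 0.5, edgeR on recovered reads, a log2 fold threshold of 1, a replicate block, and leaving out each library. The block with edgeR on recovered reads was added after seeing the data.

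The members and gene lists were chosen with earlier results of these data known. All members are named. Of the other lists (rest of glycolysis and lactate transport, other transporters, entry of pyruvate into mitochondria, pentose phosphate pathway, gluconeogenesis, regulators of glucose use, hypoxia targets), the rule for naming took, per comparison, up to 3 called genes with the largest change whose groups did not overlap. Those near 0 in both groups are mostly left unnamed. Replicate numbers come from the labels. Deviations from group means of same-numbered libraries correlated above 0.1 in every pair in N+PD30 against PD30, PD30 against PD24, N+PD24 against Nutlin and N+PD24 against PD24 (0.176 to 0.773), where the numbers were taken to pair samples.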

Additional observations from a re-analysis of the deposited data

Results flagged for a closer look

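PFKFB3 was flagged because its response to Nutlin differed between cells with and without PD30, with a log2 difference of 0.53 (SE 0.168, adjusted p = 0.0414). It was 54.8 ± 10.7 CPM in Nutlin against 72.5 ± 3.45 in DMSO, and 81.1 ± 5.34 in N+PD30 against 75.6 ± 7.26 in PD30 (SD, n = 3). DESeq2 also called it, whereas scaling by total counts (log2 0.51, adjusted p = 0.0649) and by DESeq2-type size factors within edgeR (log2 0.47, adjusted p = 0.0596) did not. It was also lost without any 1 of 8 libraries, as given above.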

How the results depend on the processing

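Of the 36 calls of members, 16 held under every alternative other than the fold threshold, and 20 were lost under some; the cause was not tested. The fold threshold left 3277, 2305 and 1898 genes for Nutlin, PD30 and PD24 against DMSO with 0 members each, 3510 and 1120 for N+PD30 and N+PD24 against Nutlin with 1 and 0 members, 555 with 0 members for N+PD30 against PD30, 1254 with 1 for N+PD24 against PD24, 1137 with 1 for PD30 against PD24, and 1647 with 0 for the PD30 interaction. Total counts left 3 members with Nutlin against DMSO, where they moved the median of all genes by -0.13 on the log2 scale and the share of calls that were higher from 48.7% to 36.7%, and 0 in the PD30 interaction, as did DESeq2-type size factors. That share moved with total counts from 61.1% to 43.8% in N+PD30 against PD30 and from 34.1% to 23.7% in N+PD24 against PD24, where it was 48.2% without the filter and 45.5% with edgeR on recovered reads. DESeq2 called 2 members in N+PD30 against PD30. In N+PD24 against Nutlin, 3 members were called with DESeq2-type size factors, without the filter and with edgeR on recovered reads, and the last called 5 in N+PD24 against PD24. The PD24 interaction had 183 genes called, 309 without the filter and 116 with edgeR on recovered reads.

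Where the numbers were taken to pair the samples, the replicate block raised the genes called from 2183 to 4375 in N+PD30 against PD30 (2 members), from 3816 to 6107 in PD30 against PD24 (7 members), from 5073 to 7852 in N+PD24 against Nutlin (7 members) and from 4853 to 7037 in N+PD24 against PD24 (5 members). On recovered reads the block gave 8378 and 8041 genes in the last 2, with 5 members in N+PD24 against PD24. The PD24 interaction had 361 genes with the block and 287 on recovered reads. It changed no other call of a member in these 4 comparisons. Elsewhere the samples share only a number, as pair correlations ran from -0.402 to 0.699. The block there gave 6 members for Nutlin, 5 for PD30 and 6 for PD24 against DMSO, 4 for N+PD30 against Nutlin and 1 for the PD30 interaction. These are as many members as without the block. The shares of all genes called without it were 54.6%, 48.3%, 38.3%, 49.0% and 19.8%, in the same order. Of 90 comparisons of a library with another group, 64 correlated best with their own number.

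Without 1 library, members called ran from 3 to 6 with Nutlin, 3 to 4 with PD30 and 2 to 5 with PD24 against DMSO, 1 to 5 in N+PD24 against Nutlin, 1 to 2 in N+PD30 against PD30, 3 to 5 in PD30 against PD24 and 0 to 1 in the PD30 interaction. Calls among all genes moved as well, from 7122 to 8661 with Nutlin, 5898 to 7135 with PD30 and 3902 to 5850 with PD24 against DMSO. They ran from 3700 to 4974 in N+PD24 against Nutlin and from 2264 to 3281 in the PD30 interaction. Genes called ran from 583 (without PD30 1) to 3384 (without N+PD30 3) in N+PD30 against PD30, where leaving out N+PD30 2, PD30 2 or PD30 3 also moved them by over 1.5-fold (625, 1150 and 1064). They ran from 2178 (without PD30 1) to 4117 in PD30 against PD24, with 2520 without PD30 3, from 3205 (without N+PD24 2) to 4514 in N+PD24 against PD24, and from 97 (without DMSO 2) to 200 in the PD24 interaction, with 118, 112 and 100 without DMSO 1, DMSO 3 and Nutlin 2. The members that lost their call are named with their libraries above.

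Uncalled values near 0 changed sign. By total counts, the log2 values that did so were HK1 (-0.11) in Nutlin against DMSO, ENO1 (-0.021) in PD24 against DMSO, PGK1 (0.033) in PD30 against PD24, HK2 (-0.0090) in the PD30 interaction and HK1 (-0.053) and LDHA (-0.092) in N+PD24 against PD24. Without the filter, the log2 values that did so were HK1 (-0.019) in Nutlin against DMSO, ENO1 (-0.011) in PD24 against DMSO and PGK1 (0.0058) in PD30 against PD24. With DESeq2-type size factors, the log2 values that did so were PGK1 (0.0032) in PD30 against PD24 and HK2 (-0.040), PFKP (-0.020) and PFKFB4 (-0.010) in the PD30 interaction. With DESeq2, the log2 values that did so were PGK1 (0.0032) in PD30 against PD24 and HK2 (-0.037), PFKP (-0.020) and PFKFB4 (-0.015) in the PD30 interaction. Without 1 library, they ran from -0.031 to 0.073 (HK1) in Nutlin against DMSO, -0.028 to 0.087 (PFKFB3) in PD30 against DMSO, -0.11 to 0.14 (SLC2A3) and -0.045 to 0.048 (ENO1) in PD24 against DMSO, -0.37 to 0.098 (HK2) and -0.058 to 0.15 (PGK1) in N+PD30 against Nutlin, -0.23 to 0.16 (LDHA) in N+PD30 against PD30, -0.068 to 0.088 (PGK1) in PD30 against PD24, -0.080 to 0.15 (PFKP), -0.15 to 0.33 (HK2), -0.14 to 0.35 (PFKFB4), -0.17 to 0.26 (SLC2A1) and -0.36 to 0.058 (LDHA) in the PD30 interaction, -0.011 to 0.38 (PFKFB4) and -0.0046 to 0.27 (SLC2A3) in N+PD24 against Nutlin, -0.23 to 0.21 (LDHA) and -0.0094 to 0.070 (HK1) in N+PD24 against PD24 and -0.20 to 0.21 (HK2), -0.044 to 0.22 (SLC2A3), -0.31 to 0.14 (LDHA), -0.069 to 0.14 (PGK1) and -0.0029 to 0.099 (ENO1) in the PD24 interaction.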
